A study of Mus musculus with 6 samples.

Results

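The genes described here are 8 of the 34099 genes measured in mouse liver tumors by single-cell RNA sequencing, namely the endothelial selectins Sele and Selp, the immunoglobulin-type adhesion genes Vcam1, Icam1 and Icam2, and the selectin ligand genes Selplg, Cd44 and Glg1. They were chosen by name, and their unique molecular identifiers (UMIs, counts of captured mRNA molecules) were summed per mouse over each annotated cell type and each cluster of endothelial cells (ECs). The mice were wild type male C57BL/6J animals, obtained at 8 weeks of age, that carried an orthotopic tumor of H22, a transplantable murine hepatocellular carcinoma line. The 3 mice of the stress group were subjected to chronic unpredictable mild stress, a protocol of changing daily stressors that ran for 21 days, and the 3 mice of the control group received the same tumor cells without the stressors. By the paper, tumor cells were implanted once the stress protocol and its behavioral evaluation were over. The words 'under stress' below therefore name the stress group and not stress at the time of sampling. Every tumor therefore came from 1 implanted line, and no tumor-free liver is among the groups compared here.

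Leukocytes leave the blood in steps. Selectins on the endothelium catch and roll passing cells through carbohydrate-bearing ligands, after which integrins on the leukocyte bind ICAM and VCAM molecules and hold the cell firmly. Selp is stored in endothelial granules and platelets, Sele and Vcam1 are classically induced by inflammatory cytokines through NF-kB, and in the liver the sinusoidal ECs take part in this traffic with an adhesion repertoire of their own.

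By the GENCODE annotation of mm10, Sele (ENSMUSG00000026582) lies at chr1:164048234-164057677 and Selp (ENSMUSG00000026580) at chr1:164115264-164150026, both on the plus strand. Vcam1 (ENSMUSG00000027962) lies at chr3:116109949-116129688 on the minus strand, Icam1 (ENSMUSG00000037405) at chr9:21015985-21028817 on the plus strand and Icam2 (ENSMUSG00000001029) at chr11:106377656-106388075 on the minus strand. The ligand genes Selplg (ENSMUSG00000048163), Cd44 (ENSMUSG00000005087) and Glg1 (ENSMUSG00000003316) lie on the minus strands of chr5:113818536-113832644, chr2:102811141-102901665 and chr8:111154421-111259216. Antisense or noncoding genes on the opposite strand overlap Selp (2 genes), Vcam1 (1 gene) and Icam1 (1 gene) in the same matrix.

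The promoters of Sele, Selp and Icam1 are shown because these genes followed nearly the same order across the EC clusters described below. Each line gives the 250 bases before the RefSeq start of the gene (GRCm38.p6), read 5′ to 3′ on the strand of the gene. Capitals mark every match, on either strand, to GGNNNTTCC or GGNNNTCCC (forms of the NF-kB motif), TGANTCA (the AP-1 motif) or TATAAA (the TATA box), and no matches of different motifs overlapped.
Sele, chr1:164047984-164048233, plus strand: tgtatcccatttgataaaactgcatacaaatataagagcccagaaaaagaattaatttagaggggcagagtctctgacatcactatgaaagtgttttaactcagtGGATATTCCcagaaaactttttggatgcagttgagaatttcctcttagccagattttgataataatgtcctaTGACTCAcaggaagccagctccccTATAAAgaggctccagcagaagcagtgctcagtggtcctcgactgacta
Selp, chr1:164115014-164115263, plus strand: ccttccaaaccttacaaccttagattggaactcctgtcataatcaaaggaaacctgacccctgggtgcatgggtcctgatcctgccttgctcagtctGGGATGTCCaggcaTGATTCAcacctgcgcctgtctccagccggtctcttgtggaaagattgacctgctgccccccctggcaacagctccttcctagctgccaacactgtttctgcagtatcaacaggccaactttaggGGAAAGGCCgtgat
Icam1, chr9:21015690-21015939, plus strand: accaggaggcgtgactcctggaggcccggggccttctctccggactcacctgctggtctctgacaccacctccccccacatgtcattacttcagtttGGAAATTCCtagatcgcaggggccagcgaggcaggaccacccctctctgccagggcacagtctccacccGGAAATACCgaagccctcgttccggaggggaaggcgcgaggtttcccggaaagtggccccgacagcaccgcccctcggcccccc
GGNNNTTCC occurred at 145 to 137 bases before the start of Sele, at 14 to 6 before that of Selp, and at 153 to 145 and 84 to 76 before that of Icam1. GGNNNTCCC stood at 153 to 145 bases before the start of Selp. TGANTCA stood at 73 to 67 bases before the start of Sele and 139 to 133 before that of Selp, and TATAAA at 49 to 44 before that of Sele. These matches are frequent, since of the 32851 promoter windows of this length 15.7% held GGNNNTTCC, 15.8% GGNNNTCCC, 6.75% TGANTCA and 12.4% TATAAA. RefSeq entries were found for 5 of the 8 genes. The window of Cd44, not printed, held GGNNNTCCC, and that of Glg1 held GGNNNTTCC and TATAAA. Vcam1, Icam2 and Selplg are named only.

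In all, 58794 annotated cells entered the sums, 7239 to 11752 per mouse, with median depths of 7166 to 20478 UMIs per cell and 11433 ECs among them. The matrices of control mice were made with Cell Ranger 9.0.0 and those of stress mice with 7.1.0, so this difference in processing and the stress cannot be told apart. Libraries shared 0.18 to 0.42% of their cell barcodes, pair by pair. In cells labeled ECs, 7 EC markers, Pecam1 and Stab2 among them, summed to 5296 to 7473 CPM (counts for every 1000000 UMIs of the sum). In tumor cells they summed to 21.5 to 40.3 CPM. The labels were drawn from genes of these same cells, so this is a description and no test of the label. Within ECs the sum was lower in cluster 16, at 1170 to 2025 CPM. Levels below are CPM of a cell type's summed UMIs, and they are compared within a gene across cells and mice. They are not scaled to gene length. Levels of different genes stand side by side in places, and list genes were picked by level, but differences between genes were not tested. Each library is 1 mouse, and the numbering of the mice was not shown to pair them. How strand was used in counting is not stated in the sources used here. The opposite-strand genes that overlap Selp, Vcam1 and Icam1 are counted as genes of their own in the matrix. Any part of them in the counts of these 3 genes was not tested.

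The selectins were almost entirely endothelial. Sele averaged 88.4 CPM in ECs (54.6 to 121 over the 6 mice), against at most 1.85 CPM on average in any of the other 7 cell types with at least 10 cells in every mouse. ECs were 19.5% of the cells and carried 95.7% ± 0.58 of all Sele UMIs (SD, n = 6 mice) and 95.0% ± 0.87 of all Selp UMIs. Selp averaged 910 CPM in ECs (642 to 1239), followed by the inflammatory myeloid cells with 16.4 CPM, and every pair of neighbours below ECs in that order overlapped. After thinning each cell to 1000 UMIs, 45.6% of ECs had a Selp UMI and 8.33% a Sele UMI, against 0.34% and 0.017% of tumor cells, a type expected to lack both. Median depths before thinning were 3608 to 5832 UMIs in ECs and 21971 to 32523 in tumor cells. Because Selp is also a platelet gene, the platelet markers were read beside it, and in ECs Gp9 averaged 0.33 CPM and Ppbp 2.1 CPM, whereas Itga2b averaged 146 CPM. With Pf4, the remaining marker of the list, they summed to 98.6 to 258 CPM over the 6 mice. The part of platelets in the Selp level was not tested.

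Vcam1, the ligand of the integrin made by Itga4 and Itgb1, was endothelial with further sources. ECs held 89.3% ± 2.5 of its UMIs (SD, n = 6) at 744 CPM (569 to 937). Monocytes came next at 115 CPM (26.9 to 196) and did not overlap with ECs. Within monocytes, cluster 11 carried the gene, at 547, 39.7 and 629 CPM in control mice and 408, 93.4 and 181 CPM in stress mice, whereas monocyte clusters 12 and 13 averaged 6.7 and 19.2 CPM. The mice numbered 2 were the lowest of both groups. Hepatic stellate cells (HSCs), liver pericytes that were too few to test (6 to 50 per mouse), ranged from 90.0 to 409 CPM of Vcam1.

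Icam1 and Icam2, the partners of the integrin made by Itgal and Itgb2, differed in breadth. Icam1 stood at 210 CPM in ECs (132 to 281) and at 204 CPM in inflammatory myeloid cells (109 to 297), and these 2 ranges overlapped almost fully. Monocytes (80.8 CPM), NK/T cells (46.6 CPM) and dendritic cells (40.9 CPM) followed, and tumor cells were lowest at 1.4 CPM. ECs accordingly held 64.0% ± 12 of Icam1 UMIs (SD, n = 6). Icam2, a constitutive endothelial gene, averaged 84.5 CPM in ECs within 77.1 to 91.8 CPM, the next cell type was B cells at 12.8 CPM (2.3 to 28.5), and ECs held 88.0% ± 3.7 of its UMIs.

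**Figure D1:**
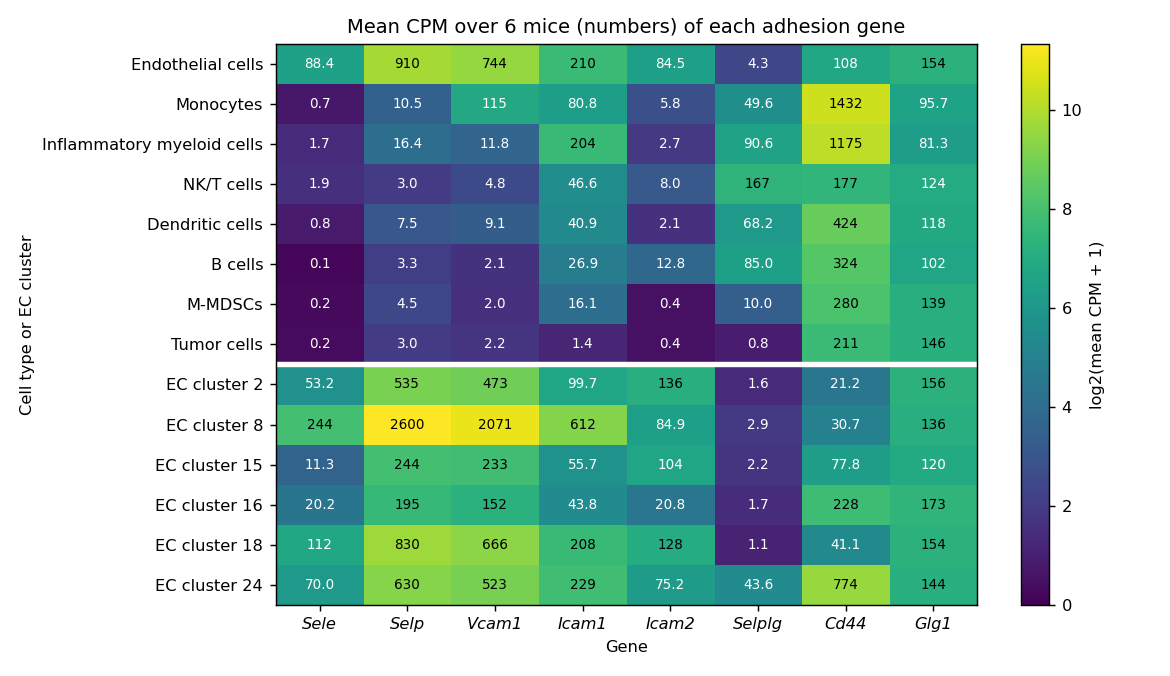
Mean CPM over the 6 mice (numbers, with colors on a log2(CPM + 1) scale) of the 8 genes (columns) in the 8 cell types with at least 10 cells in every mouse and in the 6 EC clusters with as many (rows). Sele, Selp and Vcam1 peak in EC cluster 8 at 244, 2600 and 2071 CPM, Icam2 peaks in EC cluster 2 at 136 CPM, and Cd44 in monocytes at 1432 CPM.

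Within ECs, Sele, Selp, Vcam1 and Icam1 followed nearly the same order of clusters and Icam2 another. Cluster 8, with 4.77% of all cells, held 60.4% of Sele, 60.6% of Selp, 55.7% of Vcam1 and 42.6% of Icam1 UMIs of the whole data set, but 19.7% of Icam2 UMIs. Its Selp level ranged from 1966 to 3516 CPM over the 6 mice, and that of every other testable EC cluster reached at most 1163 CPM. Cluster 2, the largest EC cluster and rich in the sinusoidal markers Stab2 and Clec4g (1965 and 1766 CPM), held 44.4% of Icam2 UMIs. The trait was not particular to it. Together, 4 sinusoidal markers, these 2 among them, summed to 5475 to 7338 CPM in cluster 2 and 4099 to 5889 CPM in cluster 8, which overlapped. Cluster 18, which carried the central venous genes Rspo3 (2668 CPM) and Wnt9b (116 CPM), came second for Sele at 112 CPM and for Selp at 830 CPM. The clusters were drawn from the same cells and genes, so these levels are descriptions.

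Over the 36 sums of 6 clusters by 6 mice, Pearson's r of log2(CPM + 1) was 0.97 between Selp and Vcam1, 0.94 between Selp and Icam1 and 0.90 between Sele and Selp, and 0.35 to 0.48 between Icam2 and each of these 4. The sums of a mouse share its library, and no test is given. Single cells were compared at equal depth. Among ECs thinned to 1000 UMIs, 76.3% of cells with a Sele UMI also had a Selp UMI, against 42.7% of cells without, higher in 6 of 6 mice. For Icam1 the shares were 34.1% and 14.6%, also higher in 6 of 6 mice, and for Icam2 they were 8.7% and 10.6%, higher in 2 of 6. Inside cluster 8 alone, 86.4% of Sele-positive and 76.6% of Sele-negative cells had a Selp UMI, and inside cluster 2 the shares were 55.5% and 34.0%, each higher in 6 of 6 mice. For Vcam1 the shares were close inside cluster 8, with 72.8% of Sele-positive and 70.9% of Sele-negative cells (higher in 5 of 6 mice) and 72.1% of Selp-positive and 67.9% of Selp-negative cells (4 of 6). Inside cluster 2 they were 37.9% and 29.6% by Sele and 33.5% and 28.2% by Selp, each higher in 5 of 6 mice.

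**Figure D2:**
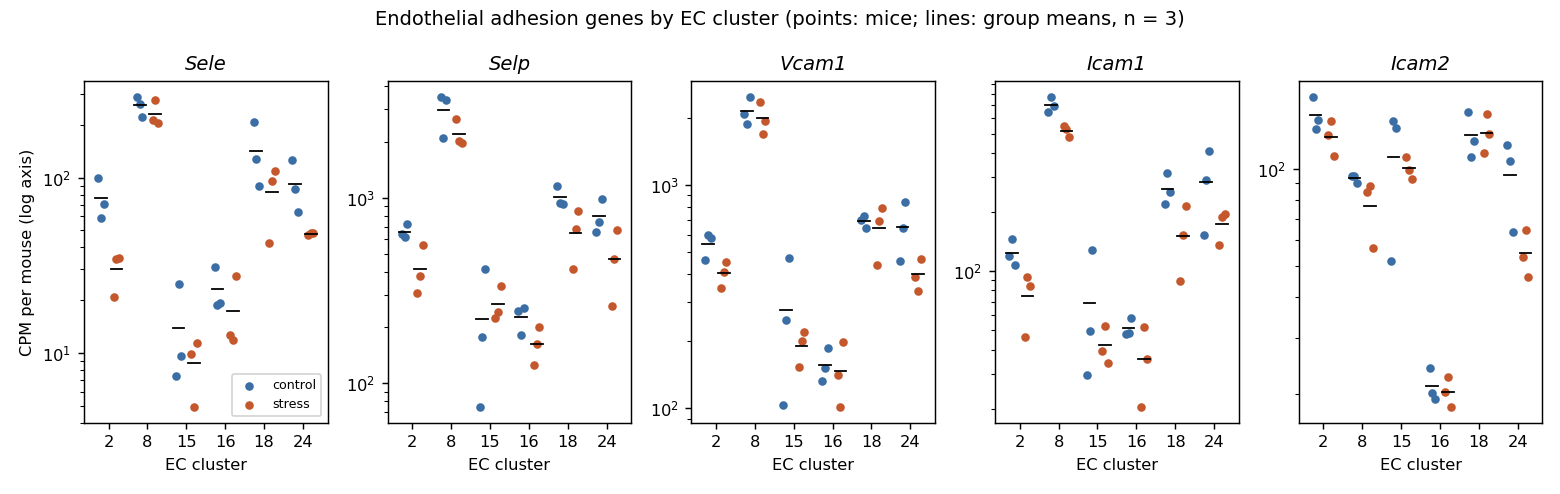
CPM per mouse on a log axis (points, control blue and stress orange, with lines at the group means, n = 3) of 5 adhesion genes in EC clusters 2, 8, 15, 16, 18 and 24. Sele, Selp, Vcam1 and Icam1 are highest in cluster 8, whereas Icam2 is lower there (84.9 CPM) than in cluster 2 (136 CPM).

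Smaller EC clusters were mixed in other markers. Cluster 16 had 135 CPM of Pecam1 and 262 CPM of the tumor marker Krt18, and cluster 24 had 277 CPM of the leukocyte gene Ptprc, against 9.1 CPM in cluster 8. Cd44, at 21.2 CPM in cluster 2 and 30.7 CPM in cluster 8, reached 228 CPM in cluster 16 and 774 CPM in cluster 24 (662 to 896). Selplg was likewise at 43.6 CPM in cluster 24 and at most 2.9 CPM in the other 5 testable clusters. Cluster 27, with 1 cell in its smallest sample, was too small to test but is part of the EC sums. Its T and NK cell markers summed to 804 to 1863 CPM. Clusters 24 and 27 held 0.99% and 0.89% of all Selplg UMIs, and ECs together 3.53%. The part of these other markers in the Cd44 and Selplg levels of ECs was not tested. Median depths per mouse were 2275.5 to 24171 UMIs in cluster 16 and 3300 to 5853 UMIs in cluster 2. Cluster 16 held 1.82% of all Cd44 UMIs, and ECs together 2.87%. No alternative left cluster 16 out, and its weight in the sums and fold changes of all ECs was not tested.

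The comparison of stress with control asked whether the adhesion genes of tumor ECs changed with chronic stress. Sele stood at 121, 101 and 90.7 CPM in the control mice and at 54.6, 75.7 and 88.1 CPM in the stress mice. All stress values lay below all control values, by a narrow margin. Icam1 was at 212, 281 and 258 CPM in controls and at 132, 170 and 204 CPM under stress, again without overlap. Selp was at 1137, 855 and 1239 CPM in controls and at 671, 642 and 917 CPM under stress, where stress mouse 3 reached above control mouse 2. Vcam1 was at 693, 773 and 937 CPM against 643, 569 and 848 CPM, with clear overlap.

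None of the 8 genes passed the test in ECs (edgeR's quasi-likelihood test, Benjamini-Hochberg adjusted p under 0.05 over all genes), where 0.213% of 14090 genes did. Of the 8, 3 had an unadjusted p under 0.05, as had 15.6% of all genes, and DESeq2 also called 0. The log2 fold change was -0.54 for Sele (SE 0.18, adjusted p = 0.246), -0.56 for Selp (SE 0.20, adjusted p = 0.266), -0.60 for Icam1 (SE 0.18, adjusted p = 0.208) and -0.25 for Vcam1 (SE 0.19, adjusted p = 0.569). Icam2 had a log2 fold change of -0.08 (SE 0.10), from 86.2 ± 3.8 to 82.8 ± 7.9 CPM (SD, n = 3). Among the ligand genes it was 0.56 for Selplg (SE 0.63), -0.16 for Cd44 (SE 0.25) and -0.01 for Glg1 (SE 0.08), with adjusted p of 0.701, 0.780 and 0.966. Groups lay apart with stress below control for 2 of the 8 genes (Sele and Icam1), and for 10.3% of all tested genes.

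**Figure D3:**
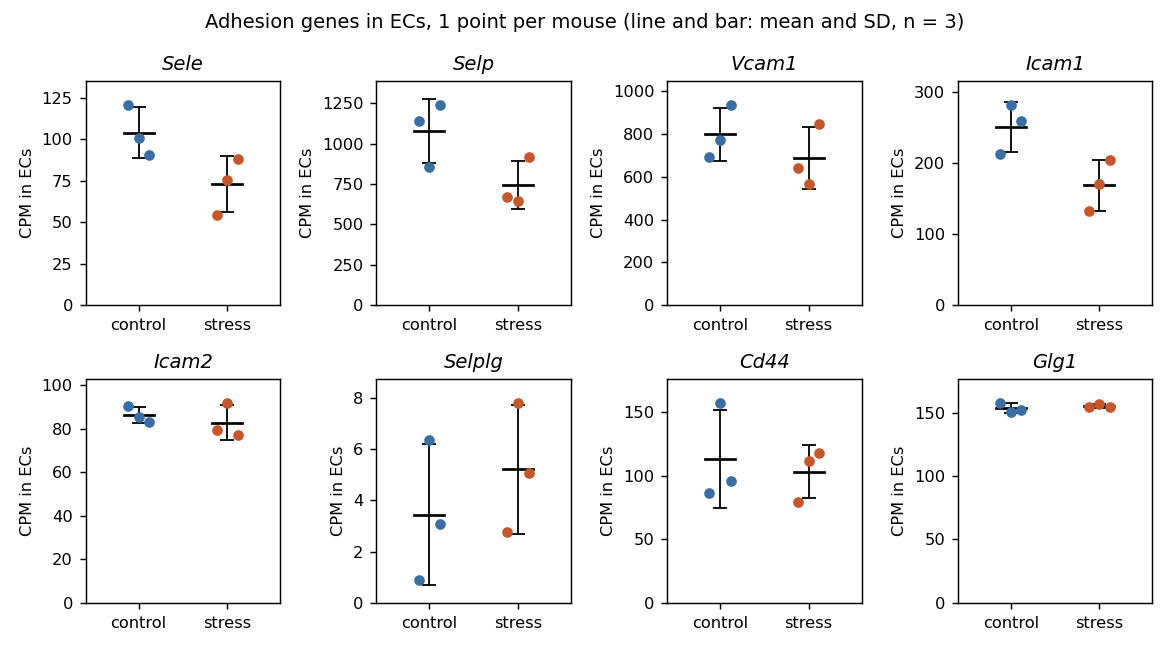
CPM of each of the 8 genes in ECs (vertical axes from 0) for the 3 control and 3 stress mice, 1 point per mouse, with the mean as a line and the SD as a bar. Sele averages 104 CPM in control and 72.8 CPM in stress mice and Icam1 251 and 168 CPM, without overlap between groups, and Glg1 stays between 151 and 158 CPM in all mice.

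The makeup of the ECs moved along with these values. Cluster 8 made up 29.1% ± 0.95 of ECs in control and 20.5% ± 4.1 in stress mice (SD, n = 3), and the shallow cluster 15, low in all 4 coordinated genes, 4.0% ± 2.0 and 17.3% ± 5.9. An alternative added after the data had been seen set every mouse to the same cluster shares, as shares of UMIs and not of cells. It covered the 6 testable clusters and left out cluster 27, which the ratio as measured includes. The log2 ratio of the group means then went from -0.51 to -0.47 for Sele and from -0.53 to -0.49 for Selp. It went from -0.57 to -0.53 for Icam1 and from -0.22 to -0.19 for Vcam1. The ratio moved further for Icam2, from -0.06 to -0.20 (exact permutation p = 0.3), for Cd44, from -0.14 to 0.02, and for Selplg, from 0.60 to 0.83. Cluster 27 held 0.89% of all Selplg UMIs, against 3.53% in all ECs, and the part of leaving it out was not tested. At the fixed shares the groups then lay apart for Selplg (exact permutation p = 0.1). They also did for Selp, at 836 to 1196 CPM in control and 708 to 789 CPM in stress mice (exact permutation p = 0.1). In a summed population, fewer strongly expressing cells and less RNA per cell cannot be told apart. The 7 EC markers themselves summed to 5296 to 6756 CPM in control and 7119 to 7473 CPM in stress ECs, without overlap and in the direction opposite to Sele and Icam1, and their part in the result was not tested. Leukocyte markers in ECs summed to 24.6 to 107 CPM in control and 32.4 to 121 CPM in stress mice, tumor markers to 105 to 155 and 56.7 to 180 CPM, and hemoglobin genes to 4.0 to 435 and 95.1 to 332 CPM.

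The share of ECs with a UMI was compared at 1000 UMIs per cell, which left out 205 of 5582 control and 405 of 5851 stress ECs as too shallow. Sele was detected in 13.1, 9.99 and 9.05% of ECs in control mice and in 4.79, 5.74 and 6.66% in stress mice. Icam1 was detected in 17.5, 21.2 and 19.3% against 11.8, 13.2 and 13.7%, and Selp in 49.4, 51.5 and 52.9% against 35.2, 36.7 and 46.2%. For these 3 genes every stress value lay below every control value, and the exact two-sided permutation test gave p = 0.1, which is the smallest p that 3 mice against 3 can reach, or 0.167 when adjusted over the 5 genes compared. The groups overlapped for Vcam1, with 43.4% ± 5.2 in control and 36.1% ± 4.8 in stress mice (SD, n = 3, exact permutation p = 0.2), and for Icam2, with 11.04% ± 1.5 and 9.90% ± 1.6 (SD, n = 3, exact permutation p = 0.5). Without thinning, Sele was detected in 25.8% ± 1.6 of control and 17.1% ± 4.2 of stress ECs. Unthinned, Icam1 was detected in 35.4, 48.2 and 44.9% against 28.0, 34.4 and 39.9%, which overlapped (exact permutation p = 0.2). Icam2, in contrast, lay narrowly apart without thinning, at 36.16, 37.02 and 41.41% against 36.15, 35.16 and 35.77% (exact permutation p = 0.1). The separation of Selp was also lost without thinning (exact permutation p = 0.2), at 2000 UMIs per cell (p = 0.3) and without cluster 15 (p = 0.2).

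Cluster by cluster, none of the 8 genes passed edgeR's test in any of 6 EC clusters, and the clusters and genes given here in full were chosen after their values were seen. In cluster 2, Sele was at 99.1, 59.0 and 70.8 CPM under control conditions and at 20.9, 34.5 and 34.7 CPM after stress. The groups were well apart, yet the log2 fold change of -1.37 (SE 0.25) had an unadjusted p of 0.00061 and an adjusted p of 0.127 in edgeR. DESeq2 did call this difference (adjusted p = 0.000384). In cluster 2 the groups lay apart, with stress below control, for Sele, Selp, Vcam1 and Icam1, that is 4 of the 7 genes tested, and for 8.88% of all tested genes. In cluster 8, Sele was at 290, 262 and 221 CPM in controls and at 212, 276 and 204 CPM under stress, which overlapped, and its log2 fold change was -0.16 (SE 0.16, adjusted p = 0.799).

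The difference between these clusters in the response of Sele was itself tested, after the data had been seen, with each mouse as a term in edgeR. The stress difference of Sele was more negative in cluster 2 than in cluster 8 by -1.14 on the log2 scale (SE 0.18, adjusted p = 0.0164), and 0.454% of 11459 genes passed this test. Selp, Vcam1, Icam1, Icam2, Cd44 and Glg1 did not pass it, with differences of -0.35 to 0.41. The adjusted p for Sele rose to 0.108 without control mouse 1, 0.117 without control mouse 3 and 0.105 without stress mouse 2, and lay between 0.00015 and 0.0166 without any of the others.

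Icam1 and Icam2 lay apart in cluster 8, both lower under stress. Icam1 stood there at 648, 774 and 693 CPM in controls and at 545, 532 and 482 CPM under stress (log2 fold change -0.43, SE 0.14, adjusted p = 0.331). There 7.99% of all genes lay apart in that direction. In cluster 18, where Selp and Icam1 lay apart, Icam1 went from 220, 318 and 252 CPM to 88.8, 153 and 215 CPM (log2 fold change -0.81, SE 0.29, adjusted p = 0.207), and 11.9% of all genes lay apart in that direction. Beside these values, hemoglobin genes summed to 2.3 to 235 CPM in control and 248.6 to 482 CPM in stress mice in cluster 8. In cluster 18, tumor markers summed to 54.7 to 71.2 and 17.2 to 41.6 CPM, and EC markers to 5358 to 7278 and 7736 to 9518 CPM. In cluster 24, platelet markers summed to 208.8 to 354.9 CPM in control and 96.8 to 182.9 CPM in stress mice, without overlap. The part of these markers in the results was not tested. Genes passing the test made up 0.196% of those tested in cluster 2, 0.278% in cluster 8, 0.153% in cluster 15, 0.636% in cluster 16, 1.02% in cluster 18 and 0.136% in cluster 24. The unadjusted p was under 0.05 for 4 members in cluster 2, 5 in cluster 24, 2 in cluster 18, 1 each in clusters 8 and 16 and 0 in cluster 15, all with lower values under stress. Of all genes tested, the share at that threshold was 13.5% in cluster 2, 6.83% in cluster 24, 17.2% in cluster 18, 10.8% in cluster 8, 14.8% in cluster 16 and 14.7% in cluster 15. DESeq2 called 1 member in all 6 clusters together. Selp had a log2 fold change of 0.30 (SE 0.44) in cluster 15 and of -0.43 to -0.75 in the other 5.

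**Figure D4:**
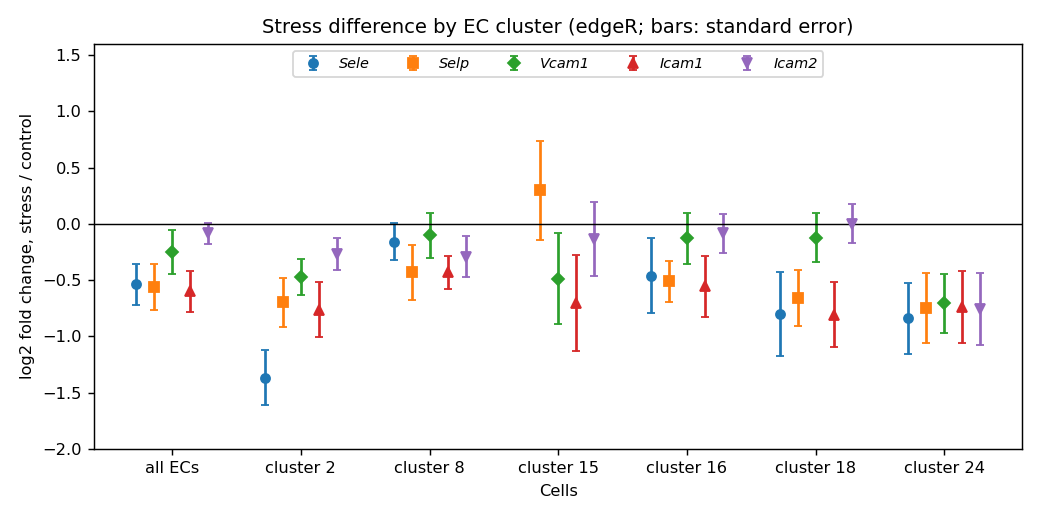
Log2 fold change of stress against control (vertical axis, edgeR, with SE as bars, 3 mice per group) of Sele, Selp, Vcam1, Icam1 and Icam2 in all ECs and in each of 6 EC clusters, where Sele was not tested in cluster 15. Most points lie below 0, and Sele differs between cluster 2 (-1.37) and cluster 8 (-0.16).

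On the side of the ligands, Selplg, the leukocyte mucin that all selectins bind, was highest in NK/T cells at 167 CPM (106 to 207). Inflammatory myeloid cells (90.6 CPM), B cells (85.0 CPM), dendritic cells (68.2 CPM) and monocytes (49.6 CPM, 28.4 to 72.3) followed, with overlapping ranges from each to the next. ECs were at 4.3 CPM and tumor cells at 0.85 CPM. At 1000 UMIs per cell, 22.9% of NK/T cells and 5.64% of monocytes had a Selplg UMI, against 0.10% of tumor cells.

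Cd44, a hyaluronan receptor that can carry selectin-binding sugars, was highest in monocytes at 1432 CPM (1066 to 1812) and in inflammatory myeloid cells at 1175 CPM (417 to 2169). Monocyte cluster 12 reached 2040 CPM. Tumor cells were at 211 CPM (146 to 311), and they held 66.0% ± 15 of all Cd44 UMIs (SD, n = 6), being 50.9% of the cells with median depths of 21971 to 32523 UMIs, against 10.4% of the cells and 4222 to 6646 UMIs for monocytes. Glg1, a Golgi glycoprotein that binds Sele, differed least between cell types, from 81.3 CPM in inflammatory myeloid cells (40.8 to 148) to 154 CPM in ECs (151 to 158), and all neighbours in its order overlapped.

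**Figure D5:**
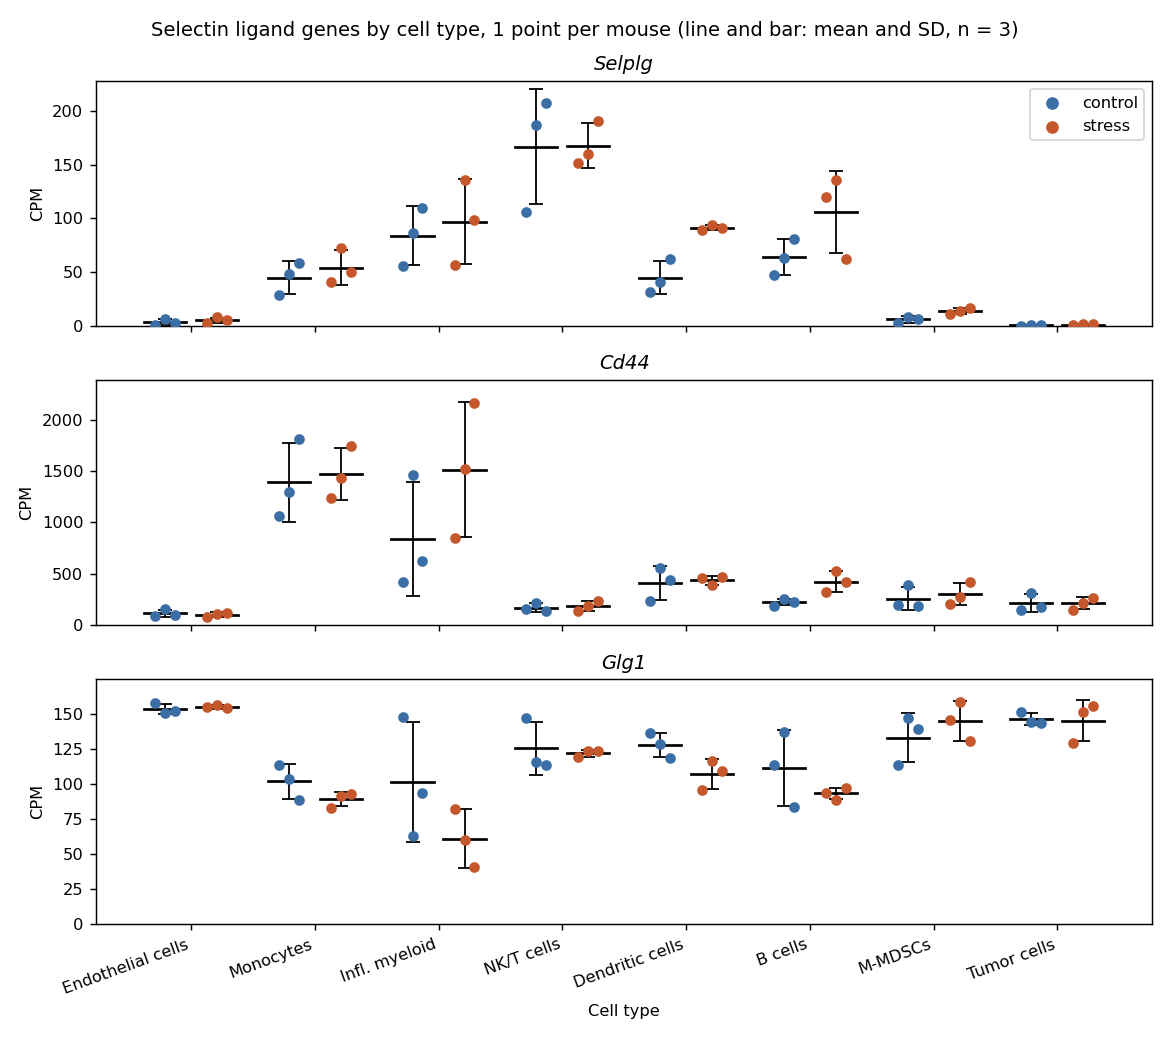
CPM per mouse (points, control blue and stress orange, mean as a line and SD as a bar, n = 3) of Selplg, Cd44 and Glg1 in 8 cell types, with vertical axes from 0. Selplg in dendritic cells goes from 45.0 to 91.4 CPM without overlap, and Cd44 is highest in monocytes and inflammatory myeloid cells in both groups.

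Outside ECs, 1 gene passed the test in 1 cell type. Selplg in dendritic cells was at 31.9, 41.0 and 62.1 CPM in control mice and at 89.1, 93.9 and 91.3 CPM after stress, which did not overlap. It rose with a log2 fold change of 1.103 (edgeR, SE 0.21, adjusted p = 0.0157), in a cell type where 2.64% of 10533 genes passed and 8.28% of genes lay apart in that direction. Leukocyte markers in these cells summed to 609 to 1026 CPM in control and 1131 to 1233 CPM in stress mice, and T and NK cell markers to 0 to 25.4 and 35.4 to 74.8 CPM, both without overlap, and their part in the result was not tested. The call was lost without control mouse 1 (adjusted p = 0.0667) and without stress mouse 3 (adjusted p = 0.0725).

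Dendritic cells consisted of clusters 19 and 20, and their mixture moved with this result. Cluster 20, with 7033 CPM of the class II gene H2-Aa in control and 6357 CPM in stress mice, made up 25.3, 40.5 and 25.9% of the control and 50.4, 63.3 and 52.2% of the stress dendritic cells. Ccr7, a gene of migrating dendritic cells, also lay apart, at 267, 429 and 678 CPM against 751, 1140 and 1200 CPM in cluster 20 and at 4.9, 12.6 and 34.5 CPM against 62.5, 57.6 and 62.0 CPM in cluster 19. The part of this mixture in the result was not tested beyond fits within each cluster. Selplg averaged 140 ± 55 CPM in cluster 20 of control mice and 179 ± 34 CPM after stress (SD, n = 3), with a log2 fold change of 0.43 (edgeR, SE 0.27, adjusted p = 0.531). In cluster 19, which held the tumor marker Krt18 at 273 and 402 CPM, Selplg went from 14.1 ± 8.6 to 29.6 ± 11 CPM (SD, n = 3), a log2 fold change of 1.03 (edgeR, SE 0.42, adjusted p = 0.514). These fits were added after the data had been seen, and 0.425% of genes passed in cluster 19 and 0.313% in cluster 20.

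In monocytes none of the 7 genes tested passed, with no unadjusted p under 0.05 and 0 calls by DESeq2, and 0.122% of all genes passed. Selplg was at 28.4, 48.3 and 58.4 CPM in controls and at 40.4, 72.3 and 49.9 CPM under stress (log2 fold change 0.31, SE 0.30). Cd44 was at 1066, 1293 and 1812 CPM against 1238, 1436 and 1746 CPM (log2 fold change 0.13, SE 0.27). Glg1 was at 114, 104 and 88.8 CPM against 83.3, 91.4 and 93.2 CPM (log2 fold change -0.13, SE 0.15). The mice of both groups overlapped for each of these genes.

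None of the genes passed edgeR's test in the other 5 cell types, where 21.4% of genes passed in tumor cells, 0.857% in NK/T cells, 0.483% in B cells, 0.561% in M-MDSCs (monocytic myeloid-derived suppressor cells) and 0 in inflammatory myeloid cells. In inflammatory myeloid cells 365 genes, none of the 6 members tested among them, had an unadjusted p under 0.05, and DESeq2 called 6 genes. Cd44 in B cells was at 190, 252 and 228 CPM in controls and at 326, 528 and 417 CPM under stress (log2 fold change 0.99, adjusted p = 0.101, 20 cells in the smallest sample, chosen after its values were seen). Selplg in tumor cells, likewise chosen, at 0.45 ± 0.29 and 1.24 ± 0.45 CPM (SD, n = 3), had an adjusted p of 0.0831 in edgeR and 0.0244 in DESeq2.

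Other genes of the pathway were read from lists. Of the integrin counter-receptor genes, 8 of 9 could be tested in ECs and in monocytes, and none passed, with none at an unadjusted p under 0.05. In monocytes Itgam, Itgb1, Itgb2 and Itga4 stood at 270, 224, 221 and 117 CPM, and the median log2 fold change of the list was 0.23 against -0.006 over all genes. Itga4, the alpha chain that binds Vcam1, reached 319 CPM in NK/T cells. Of 14 related adhesion genes, 11 could be tested in ECs and none passed. Esam stood at 727, Pecam1 at 588, Podxl at 203 and Mcam at 191 CPM, and the median was 0.10 against -0.009 over all genes. Esam, a junction molecule, was at 891, 743 and 922 CPM in controls and at 602, 575 and 630 CPM under stress (log2 fold change -0.53, SE 0.13, adjusted p = 0.159).

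For the enzymes of selectin ligand synthesis, none of 9 testable genes passed in ECs or monocytes. Fut7, the fucosyltransferase that completes the selectin-binding sugar on leukocytes, averaged at most 0.99 CPM in the 8 cell types with enough cells to test. It is named after its values were seen, and its level in neutrophils and HSCs, too few to test, was not read. B4galt1 and St3gal4 were at 168 and 90.7 CPM in monocytes. Of the Cd44 partners, none of 7 testable genes passed in ECs or monocytes, and Spp1 and Cd74 stood at 3725 and 3216 CPM in monocytes. Fn1 in ECs was at 180, 168 and 164 CPM in controls and at 254, 256 and 330 CPM under stress (log2 fold change 0.69, SE 0.13, adjusted p = 0.102), a gene named after its values were seen.

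The list of NF-kB and cytokine genes, which holds the classical inducers of Sele, Vcam1 and Icam1, had 14 testable genes in ECs, and none passed. There, 5 had an unadjusted p under 0.05, all lower under stress (Nfkbia, Relb, Irf1, Tnfaip3 and Il1a, 3 of them named for this count), against 15.6% of all genes, and the median of the list was -0.06 against -0.009 over all genes. Nfkbia, the NF-kB inhibitor that NF-kB itself induces, was at 748, 617 and 705 CPM in control ECs and at 437, 334 and 402 CPM in stress ECs (log2 fold change -0.84, SE 0.15, adjusted p = 0.0941). Nfkb1 was at 218, 286 and 239 CPM in controls and at 254, 292 and 293 CPM under stress (log2 fold change 0.15, SE 0.13, adjusted p = 0.599). Irf1 was at 293, 225 and 404 CPM against 193, 168 and 216 CPM (log2 fold change -0.70, SE 0.23, adjusted p = 0.230). The receptor Il1r1 was at 672, 1022 and 860 CPM in controls and at 984, 1064 and 1233 CPM under stress. In monocytes none of the 14 passed, 4 had an unadjusted p under 0.05, all higher under stress, against 12.0% of all genes, and the median was 0.39 against -0.006 over all genes. In dendritic cells, where 2.64% of all genes passed edgeR's test and the mixture of clusters 19 and 20 differed between the groups, the list genes that rose were Il1b (log2 fold change 1.54, adjusted p = 0.0122), Nfkb1 (1.03, adjusted p = 0.0409) and Cd74 (0.78, adjusted p = 0.0403). In NK/T cells, where 0.857% passed, Fn1 rose (1.17, adjusted p = 0.0167). In tumor cells, where 21.4% passed, Itga9, Pecam1, Has1 and Fn1 rose and St3gal4, Hmmr and Tnfrsf1a fell. Their log2 fold changes ranged from -0.56 to 1.497. The EC markers, Pecam1 among them, summed there to 21.55 to 27.01 CPM in control and 28.68 to 40.26 CPM in stress mice. Tumor markers summed to 428.2 to 436.1 and 517.4 to 690.7 CPM, and both lists lay apart without overlap. The part of these markers in the results was not tested.

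A ligand-receptor value from ECs to monocytes was formed for 7 pairs as the product of both levels over 0.5 plus that product. A level is Tukey's trimean of log-normalized expression, divided by the largest log-normalized value of the data (8.86). For an integrin, the level is the geometric mean over its chains. For Sele with Cd44 it was 0.0127, 0.00905 and 0 in control mice and 0 in every stress mouse (exact permutation p = 0.4). Sele with Glg1 had the same pattern, and Sele with Selplg was 0 in all mice. The trimean is 0 wherever fewer than 25% of cells carry a UMI, and Sele was seen in 14.2 to 27.2% of ECs without thinning. With plain means, Sele with Cd44 was 0.0266, 0.0231 and 0.0242 in control and 0.0121, 0.0147 and 0.0203 in stress mice, which did not overlap (exact permutation p = 0.1, adjusted over 7 pairs 0.35). Selp with Selplg was 0.00314 ± 0.00545 in control and 0.00423 ± 0.00372 in stress mice (SD, n = 3, exact permutation p = 1), and Vcam1 with its integrin 0.0128 ± 0.012 and 0.0144 ± 0.0027 (SD, n = 3, exact permutation p = 0.9). The values of Icam1 and Icam2 with their integrin had exact permutation p of 0.9 and 0.8. These pairs met the same floor in some mice. Selp with Selplg was 0 in control mice 1 and 2 and in stress mouse 1. The pairs of Vcam1, Icam1 and Icam2 were 0 in control mouse 1. Their p-values therefore cannot show that the groups were alike.

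The genes whose levels most resembled each member were taken from 10879 genes over 48 sums of 8 cell types by 6 mice, which share libraries and are dominated by the difference between cell types. For Sele they were Sox17, Afap1l1 and Tal1 (Pearson's r 0.95 to 0.96), and for Selp they were Plxna2, Mcam and Sox18 (r about 0.96). Thbd, Dock1 and Lepr came closest to Vcam1 (r 0.94 to 0.95), and Pecam1, Mlxip and Ica1 to Icam2 (r 0.92). Icam1, which is shared by endothelial and myeloid cells, was nearest to Casp4 (r 0.97), AKAP17A and Abcg1 (both 0.95). Selplg lay closest to the leukocyte genes Rac2, Dock2 and Ptprc (r 0.97), Cd44 to Rnf19b, Cd68 and Ftl1 (r 0.90 to 0.92), and Glg1 to Ehmt1, Akirin2 and Ppp2r2a (r 0.91 to 0.92).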

How the data were processed

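Fresh tumor suspensions of 6 mice were profiled with the 10x Genomics Chromium system. The deposited matrices hold raw UMI counts made with Cell Ranger (mm10, per the labels and file headers), and the deposited cell table gives each cell's library, cluster and type after doublet removal, quality filters, integration and clustering in Seurat by the authors. Cells were matched by library and barcode. Their totals equalled those of the cell table in 68.3 to 76.7% of cells and differed by at most 87 UMIs. No further cells were removed. For each cell type or cluster with at least 10 cells in every mouse, the UMIs of each animal were added up and tested with edgeR 4.0.16 (filterByExpr, TMM, quasi-likelihood, Benjamini-Hochberg over all genes, 0.05), after a check on simulated data. CPM were computed from all UMIs of the sum. The SE of an edgeR fold change was back-calculated, as its absolute log2 value over the square root of the F statistic of the test. DESeq2 1.42.0, RLE, no filter, the replicate block and left-out mice were alternatives. Shares with a UMI and pair values were compared with exact permutation tests (SciPy 1.17.1). Fold changes are given for all members in ECs, for the ligand genes in monocytes and for called members. List genes were to be named where they passed in ECs or monocytes or, since none did, up to 4 per list by CPM. List genes that passed in other cell types, and some chosen after their values were seen, are named as well. Likeness is Pearson's r of log2(CPM + 1) among genes with a mean of at least 5 CPM. The members and lists were chosen with earlier results of these data known. With 3 mice against 3, no exact test can give p under 0.1.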

Additional observations from a re-analysis of the deposited data

Results flagged for a closer look

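Sele in ECs was singled out because its response to stress differed between cell clusters, by a test of the difference itself that was chosen after the data had been seen. The stress difference in cluster 2 was more negative than that in cluster 8 by -1.14 on the log2 scale (edgeR, SE 0.18, adjusted p = 0.0164). Its mean level went from 76.3 ± 21 to 30.1 ± 7.9 CPM in cluster 2 and from 258 ± 34 to 231 ± 39 CPM in cluster 8 (SD, n = 3). Without control mouse 1, control mouse 3 or stress mouse 2 the adjusted p was 0.108, 0.117 and 0.105. Beside it, cluster 8 averaged 29.1% of ECs in control and 20.5% in stress mice, a difference whose part in the result was not tested. Groups of 3 mice were too small for a search for outlying samples.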

How the results depend on the processing

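No member was called in ECs under any of the alternatives run. In the other cell types, 1 call became 2 with DESeq2 and with the replicate block (Selplg in tumor cells added) and 2 without a filter (Cd44 in B cells added). With 1 mouse left out it was 0 to 2, with 0 without control mouse 1 and 2 without control mouse 2, and without stress mouse 3 the only call was Selp in tumor cells. The correlations of same-numbered mice, in their deviations from the group means in ECs, were 0.571, 0.434 and 0.016. These values do not settle whether the replicate numbers pair the mice, and whether same-numbered mice share a batch is not known here. In the EC clusters, 0 calls became 1 with DESeq2 (Sele in cluster 2), 2 without a filter (Icam1 in cluster 18 added) and 0 to 1 with a mouse left out, with 1 without control mouse 2. Over all genes, calls in ECs went from 30 to 421 with DESeq2, 107 without a filter and 131 with the block, and in monocytes from 15 to 180, 214 and 205. With 1 mouse left out they ranged from 3 (without control mouse 1) to 46 (without control mouse 2) in ECs and from 3 (without control mouse 1 or 3) to 64 (without control mouse 2) in monocytes. In tumor cells they went from 4041 to between 1191 (without control mouse 3) and 5790 (without control mouse 2), in dendritic cells from 278 to between 65 (without stress mouse 3) and 354, in EC cluster 2 from 22 to between 0 (without control mouse 3) and 169 (without control mouse 2), and in EC cluster 8 from 29 to between 9 (without stress mouse 2) and 137 (without control mouse 2). The ranges were 38 to 125 around 96 in NK/T cells, 6 to 40 around 28 in B cells, 25 to 90 around 53 in M-MDSCs, 5 to 39 around 8 in EC cluster 15, 16 to 194 around 74 in cluster 16, 11 to 185 around 87 in cluster 18 and 5 to 34 around 8 in cluster 24. The lowest came without control mouse 3 in B cells, M-MDSCs and clusters 16 and 18 and without control mouse 1 in NK/T cells, and the highest without control mouse 2 in M-MDSCs and clusters 16, 18 and 24 and without stress mouse 1 in cluster 15. Selplg in dendritic cells ranged from 0.95 to 1.40 with a mouse left out and was not called in cluster 19 (1.03) and cluster 20 (0.43) alone, and Sele in cluster 2 against cluster 8 ranged from -1.38 to -0.97 with a mouse left out.

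Of 302 alternative values, 265 kept direction and side of the threshold, and 22 changed sign, all of values that never passed a test. Shares and pair values were judged by exact tests that cannot give p under 0.1. For these only the direction could change, so their part of the count says nothing about the threshold. In ECs, Glg1 became 0.0070 without cluster 15, 0.0070 in marker-selected ECs, 0.0089 with equal cell numbers and 0.034 at fixed cluster shares, and -0.024 to 0.00042 with a mouse left out. With a mouse left out, Selplg ranged from 0.11 to 1.36, Vcam1 from -0.43 to -0.10 and Icam2 from -0.15 to -0.04 in ECs, and Selplg from 0.05 to 0.56 and Glg1 from -0.20 to -0.07 in monocytes. Cd44 in ECs became 0.023 at fixed shares and ranged from -0.33 to 0.15, and in monocytes from -0.060 to 0.41. Stress minus control of pair values turned to -0.0012 (Selp with Selplg) and -0.0020 (Vcam1) with plain means, to -0.00090 (Vcam1) with trimmed means, and to -0.0066 (Vcam1) and -0.00015 (Icam2) without monocyte cluster 13. With a mouse left out it ranged from -0.00049 to 0.0042 for Selp, -0.0018 to 0.0010 for Icam1, -0.00052 to 0.0013 for Icam2 and -0.0048 to 0.0066 for Vcam1. The difference in the share of ECs with a UMI ranged, in percentage points, from -5.83 to -3.79 for Sele, -15.3 to -9.82 for Selp, -10.1 to -4.86 for Vcam1, -7.39 to -5.54 for Icam1 and -1.93 to -0.34 for Icam2. Sparse counts of Sele and of Selplg in ECs limit their precision.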
